A study of Mus musculus with 6 samples.

Results

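Genes of fibroblast growth factor (FGF) and extracellular signal-regulated kinase (ERK) signalling were followed in the cortex of mice at embryonic day 12.5 after conditional deletion of the histone deacetylase genes Hdac1 and Hdac2. The members were 45 gene symbols taken for their known place in the pathway, from ligands to feedback inhibitors, each represented by the table row with the highest mean normalized count. Of the 45, 32 were found among the 12041 symbols of the deposited table, and 29 of these passed the filter on low values (at least 1 FPKM in 3 or more libraries) and were tested. The groups were 3 cKO libraries, in which Hdac1 and Hdac2 were conditionally deleted together, and 3 WT libraries, as read from the M and C in the column names. All 6 carry the strain label C57BL/6. What drives the recombinase, which exons were deleted and in which cells is not given in the labels. The labels number the samples without naming embryos or litters. The spread that the p-values rest on is thus that of 3 libraries a group and may be partly technical. Libraries are called by their column names, and their values are always listed in the order HM-5, HM-13, HM-16 for cKO and HC-1, HC-8, HC-10 for WT.

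In this pathway a secreted FGF binds a receptor tyrosine kinase, adaptor proteins pass the signal to RAS, and a chain of kinases (RAF, MEK, ERK) carries it to the nucleus. ERK then induces transcription factors of the ETS and immediate early classes, and with them inhibitors that shut the pathway down again: the Sprouty and SPRED proteins, which act on RAS activation, and dual-specificity phosphatases (DUSPs), which dephosphorylate ERK. In the early telencephalon FGFs from the anterior midline pattern the cortex, and transcripts of the ETS factors, Sprouty genes and Dusp6 are widely used as a readout of the signal.

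The targeted transcripts were low in every cKO library. Hdac1 had 45.5, 61.0 and 47.4 FPKM (fragment counts corrected for transcript length and by a scaling factor per library) in cKO, against 212, 197 and 193 FPKM in WT. Hdac2 was at 23.6% of its WT mean. Reads recovered from the values totalled 9712556 to 11473715 in cKO and 10345264 to 11922665 in WT. In HM-13, 29.7% of reads lay in the ribosomal RNA row Rn45s, against at most 2.48% in the other 5 libraries. Summed levels of 5 cortical progenitor markers were 852 to 1091 FPKM in cKO and 853 to 868 FPKM in WT, with Emx2 higher in cKO (adjusted p = 0.0360, limma). These 5 markers did not share a direction: 3 had a log2 fold change above 0 and 2 below 0. Microglial markers summed to 59.4 to 67.9 FPKM in cKO and 41.9 to 51.2 FPKM in WT, with Tyrobp and C1qb higher in cKO (adjusted p = 0.0150 and 0.0170, limma). Each of these 3 calls was lost without HM-16, all but Tyrobp also without HM-5, Emx2 without HC-1, HC-8 or HC-10 and C1qb without HC-10. Markers of the hem and choroid plexus summed to 107 to 128 FPKM in cKO and to 15.9 FPKM in HC-10, against 209 and 245 FPKM in HC-1 and HC-8. Markers of the ventral telencephalon (35.3 to 53.7 FPKM in cKO, 27.6 to 80.1 FPKM in WT), meninges (252 to 405 FPKM in cKO, 213 to 460 FPKM in WT), endothelium (102 to 130, 73.5 to 133 FPKM), erythroid cells (12766 to 18766, 11609 to 15556 FPKM) and intermediate progenitors with neurons (741 to 1087, 980 to 1290 FPKM) overlapped between the groups, and none of their tested genes passed. For intermediate progenitors with neurons the sums were 741, 1087 and 755 FPKM in cKO and 980, 1044 and 1290 FPKM in WT. Of the cKO libraries HM-13 alone thus lay in the WT range. Of these 7 genes 6 had a log2 fold change below 0, beside 4791 of all 9359 genes. Without HM-13, 2 of the 7 were called lower, beside 812 of all genes. The oligodendrocyte lineage summed to 0.464 to 2.96 FPKM in cKO and 2.41 to 5.23 FPKM in WT. Of its 3 measured genes 1 was tested (Olig2, which did not pass), while Sox10 (0.0425 to 0.139 FPKM in cKO, 0.391 to 1.72 FPKM in WT) and Olig1 (0 to 0.267 FPKM in cKO, 0.450 to 1.27 FPKM in WT) lay under the filter and were lower in every cKO library than in any WT library. The part of these mixtures in the results below was not tested.

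Of the 29 members tested, 11 changed in the cKO at an adjusted p under 0.05 (limma, Benjamini-Hochberg over all 9359 genes tested). Higher in the cKO were 3 members (Dusp9, Erbb2 and Map2k1), and 8 were lower (Fgf15, Etv4, Spry2, Spred1, Dusp4, Dusp1, Ier5 and Nras). Over all 9359 genes 18% were called, 9.62% higher and 8.39% lower in cKO, while the 11 called members are 37.9% of those tested. The 3 cKO values did not overlap the 3 WT values for 15 of the 29 members (51.7%), against 39.1% of all genes tested. The median log2 fold change (cKO over WT) was -0.00 over the 29 members and -0.01 over all genes. These shares describe a list chosen with earlier results of these data known, and no test was made of them. Etv4 is counted in these shares, though it passed the filter on low values through its WT libraries alone, which favours a call lower in cKO. With at least 1 FPKM required in all 6 libraries, Etv4 was not tested. In that setting 3 members rose and 7 fell, beside 802 and 790 of all genes. Beyond the 11, 6 members had an unadjusted p under 0.05 (limma) and did not pass the adjustment. The share of all genes tested in that state is not given here, so these 6 have no background beside them.

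**Figure D1:**
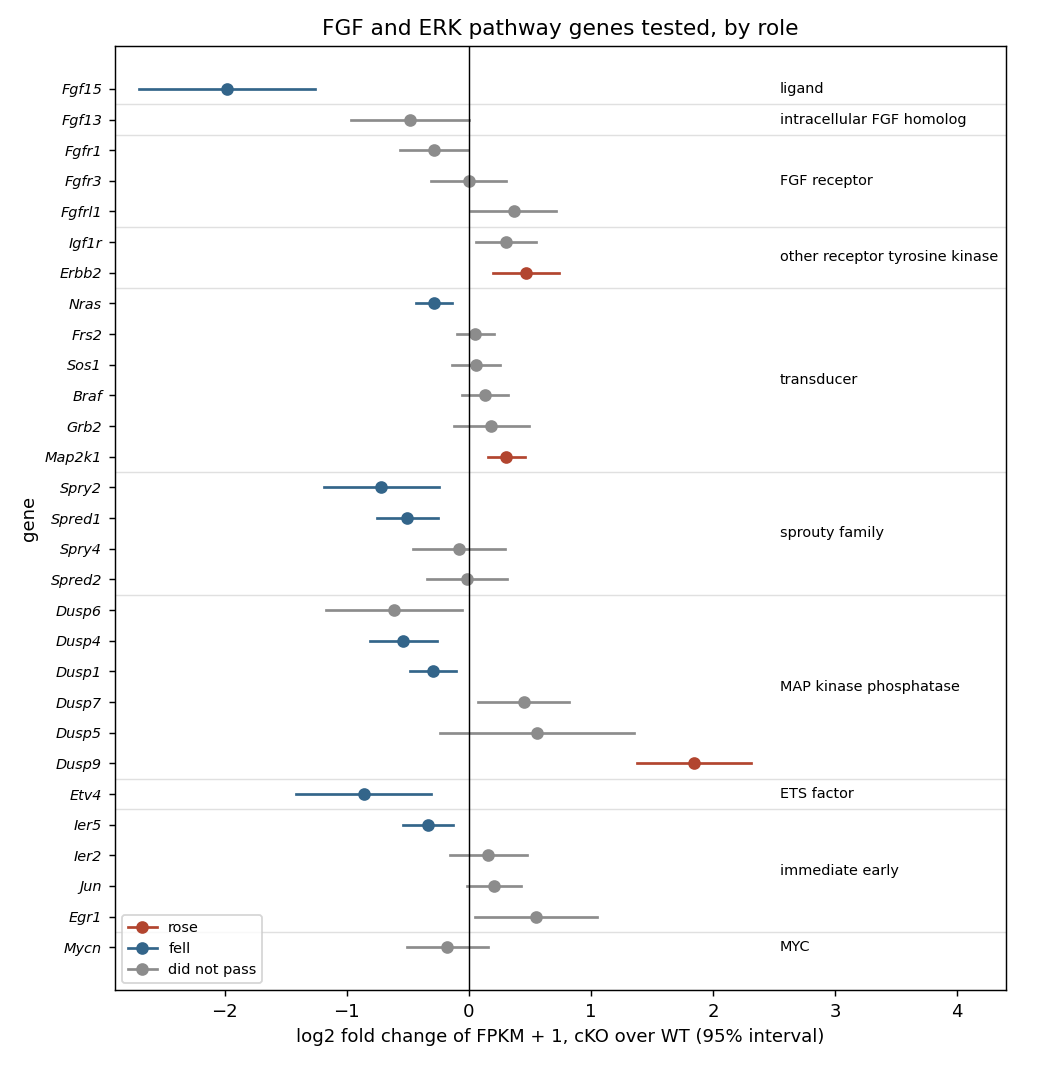
Log2 fold change of FPKM + 1 (x axis, cKO over WT) with its 95% interval for the 29 tested members (y axis), grouped by role; colour marks genes that rose, fell or did not pass. Fgf15 at -1.98 and Dusp9 at 1.84 lie farthest from 0. The MAP kinase phosphatases lie on both sides of 0, 3 on each, while the 4 sprouty family genes lie below 0, Spred2 only just (-0.02).

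The count changed with the library left out, for the members and for all genes. Over all genes tested, 900 rose and 785 fell with all libraries. These counts were 291 and 220 without HM-5, 961 and 812 without HM-13, and 284 and 261 without HM-16. They were 698 and 405 without HC-1, 645 and 776 without HC-8, and 526 and 362 without HC-10. Without HM-13, 5 members fell (Fgf15, Spred1, Dusp4, Dusp1 and Nras) and 4 rose (Dusp9, Erbb2, Map2k1 and Dusp7). Without HC-8, 4 fell and 2 rose, without HC-10 3 fell and 2 rose, without HM-16 2 fell and 1 rose, without HC-1 1 fell and 2 rose, and without HM-5 1 fell and 1 rose. Only 2 of the 11 calls, Fgf15 and Dusp9, held whichever library was left out, and these 2 also held in every other setting run. The share of all called genes that held whichever library was left out is not given here.

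Among secreted ligands, Fgf15 was measured, and its mean FPKM fell about 5-fold. Fgf15 (ENSMUST00000033389; chromosome 7, 144896531 to 144900953, GRCm38, plus strand, 3 exons) encodes the mouse counterpart of human FGF19 and is transcribed in the embryonic forebrain. It had 2.5, 3.73 and 3.52 FPKM in cKO, against 11.7, 27.4 and 11.8 FPKM in the WT libraries. All cKO libraries lay below all WT libraries, and HC-8 stood well above the other WT libraries. The means were 3.25 ± 0.658 FPKM in cKO and 16.95 ± 9.05 FPKM in WT (SD, n = 3 each), 19.1% of WT, and the log2 fold change was -1.98 (SE 0.31, 95% interval -2.70 to -1.26, adjusted p = 0.00716). It rests on 51 to 67 reads per cKO library and 227 to 631 per WT library. With 1 library left out the highest adjusted p was 0.0388.

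Other measurements sit beside the fall of Fgf15. Exons of Gm26793 and Gm39119 overlap this transcript on the opposite strand, and the strand setting of the counting is not given, so reads of these genes cannot be told apart. The ventral telencephalon gene Dlx2 also varied among libraries, with 1.43, 11.8 and 13.1 FPKM in cKO and 3.74, 38.3 and 26.5 FPKM in WT (adjusted p = 0.402). HC-8 was highest for both genes, while HC-1, with little Dlx2, had as much Fgf15 as HC-10. The part of ventral telencephalic tissue in the Fgf15 levels was not tested, and in bulk tissue fewer cells of a type and less RNA per cell cannot be told apart. The ligand genes Fgf8, Fgf9, Fgf17 and Fgf18 were not analysed here.

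**Figure D2:**
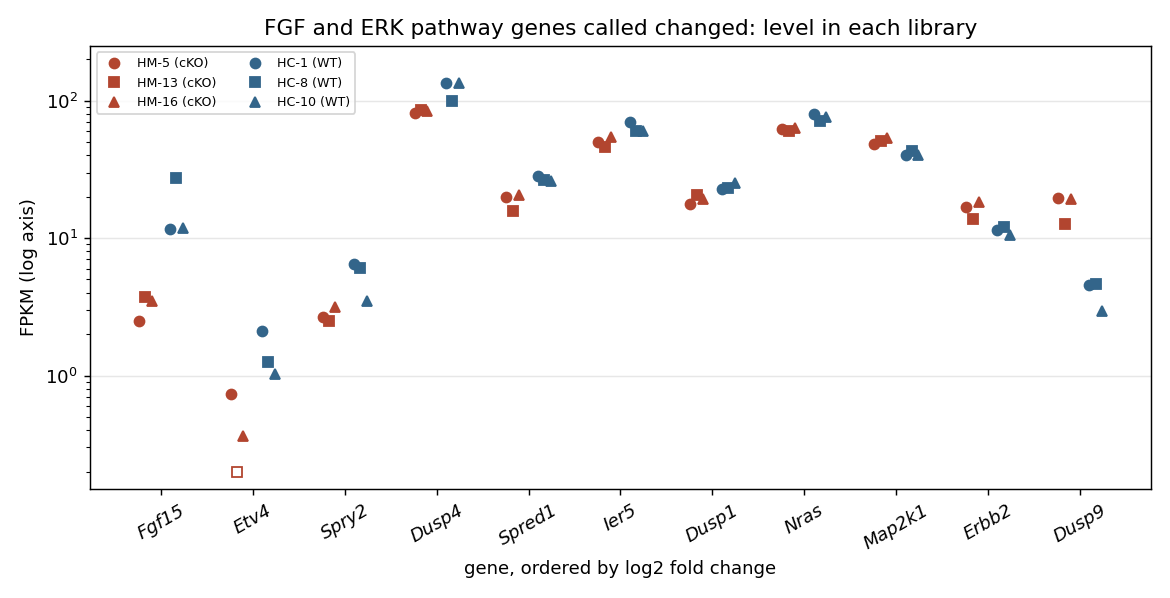
FPKM (log axis) of the 11 called members in each library, cKO in red to the left of WT in blue, with 1 marker shape per library within a group; the open square is Etv4 in HM-13, which had 0 reads and is drawn at the foot of the axis. No gene shows overlap between its 3 cKO and 3 WT libraries.

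Fgf13, a member of the FGF family that stays inside the cell and binds sodium channels and microtubules, did not pass. Its main row (ENSMUST00000033473) had 3.12, 4.37 and 3.72 FPKM in cKO and 4.06, 7.76 and 5.37 FPKM in WT, with a log2 fold change of -0.48 (95% interval -0.96 to 0.01, adjusted p = 0.15). A second transcript row (ENSMUST00000119833) averaged 2.88 ± 0.294 FPKM in cKO and 2.5 ± 0.129 FPKM in WT (SD, n = 3 each), a log2 fold change of 0.15 when every row was fitted on its own (adjusted p = 0.420). The difference between the 2 rows was not tested.

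No FGF receptor gene passed. Fgfr1 averaged 1.41 ± 0.213 FPKM in cKO and 1.93 ± 0.20 FPKM in WT without overlap (log2 fold change -0.29, 95% interval -0.57 to -0.01, adjusted p = 0.139). A second Fgfr1 row (ENSMUST00000178276) did overlap, with 1.44, 2.21 and 1.80 FPKM in cKO and 1.77, 2.41 and 2.72 FPKM in WT. When every row was fitted on its own with limma, its log2 fold change was -0.23 (adjusted p = 0.368). Fgfr3 averaged 1.77 ± 0.277 FPKM in cKO and 1.78 ± 0.289 FPKM in WT, and its interval of -0.31 to 0.30 is centred near 0. Fgfrl1, which encodes a receptor-like protein without a kinase domain, averaged 2.32 ± 0.407 FPKM in cKO and 1.58 ± 0.376 FPKM in WT, also without overlap (log2 fold change 0.37, 95% interval 0.02 to 0.72, adjusted p = 0.127). Fgfr2 and the coreceptor-type inhibitor gene Il17rd were not analysed here.

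These receptor rows are single transcripts of genes with several. Fgfr1 has 3 RefSeq mRNAs and the row used (ENSMUST00000120106) has 9 exons, and Fgfr3 has 7 RefSeq mRNAs. Across the table, symbols with 1 RefSeq mRNA had a median FPKM of 10.4 (6131 symbols), against 1.90 for those with 2 or more (3409 symbols). Among the members the medians were 10.6 FPKM (23 genes) and 1.77 FPKM (9 genes). Levels of multi-transcript genes such as Fgfr1, Fgfr3, Fgfrl1, Grb2 and Etv4 are therefore given as levels of their row, and they were not ranked against the others.

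Of the other receptor tyrosine kinases, Erbb2 rose modestly. Erbb2, the coreceptor of the neuregulin and epidermal growth factor receptors, had 16.7, 13.7 and 18.2 FPKM in cKO, against 11.5, 12.1 and 10.5 FPKM in WT, so the lowest cKO library lay above the highest WT library. Its log2 fold change was 0.47 (SE 0.12, 95% interval 0.20 to 0.74, adjusted p = 0.0321), a 1.42-fold ratio of means, and the call was kept with 1 of the 6 libraries left out, HM-13 (highest adjusted p = 0.120). An exon of it overlaps Mien1 on the opposite strand, as Braf, Fgfr3, Dusp5 and Jun each overlap a gene there. Igf1r, the insulin-like growth factor receptor, had 2.99, 2.77 and 3.06 FPKM in cKO and 2.07, 2.37 and 2.12 FPKM in WT, a 1.35-fold ratio that did not pass (log2 fold change 0.31, 95% interval 0.06 to 0.55, adjusted p = 0.0829). It passed with limma's voom on the recovered reads (adjusted p = 0.0176). Egfr lay under the filter at 0.993, 0.740 and 1.40 FPKM in cKO and 1.31, 0.829 and 0.802 FPKM in WT, and Pdgfra was not analysed here.

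Among the genes that carry the signal from receptor to ERK, 1 changed in each direction. Of 6 tested transducers, Map2k1 rose and Nras fell, and 4 did not pass, beside 18% called over all genes. Map2k1 (chromosome 9, 64185770 to 64253631, minus strand), which encodes the ERK kinase MEK1, had 48.5, 50.5 and 53.8 FPKM in cKO and 40.1, 42.7 and 40.0 FPKM in WT. The groups were apart and tight, with 51.0 ± 2.69 FPKM in cKO and 40.9 ± 1.51 FPKM in WT (SD, n = 3 each; log2 fold change 0.31, SE 0.07, adjusted p = 0.0188). Nras, one of the RAS switch proteins, had 62.5, 60.2 and 63.1 FPKM in cKO and 80.1, 71.6 and 75.5 FPKM in WT, 81.8% of the WT mean (log2 fold change -0.28, SE 0.06, adjusted p = 0.0210). Each of these calls was lost without HM-5, HM-16, HC-1 or HC-10 (highest adjusted p = 0.0761 for Map2k1 and 0.0813 for Nras) and with scaling to library totals (adjusted p = 0.733 and 0.440), where the signs stayed.

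The transducers that did not pass are given with their intervals. The docking protein gene Frs2 averaged 23.9 ± 0.239 FPKM in cKO and 23.0 ± 0.816 FPKM in WT, with a 95% interval of the log2 fold change from -0.10 to 0.21. The RAS activator Sos1 averaged 10.4 ± 0.585 FPKM in cKO and 9.92 ± 0.223 FPKM in WT, an interval of -0.14 to 0.25. Signs of both turned with scaling to library totals, to -0.04 for Frs2 and -0.03 for Sos1. With that scaling the median log2 fold change over all genes was -0.09, against -0.01 in the main fit. These totals include the Rn45s reads, 29.7% of the total in HM-13. For the RAF kinase gene Braf the interval was -0.06 to 0.32 and for the adaptor gene Grb2 -0.12 to 0.49. Mapk3, which encodes ERK1, lay under the filter, with 7 to 23 reads per library and 0.789 ± 0.322 FPKM in cKO against 0.464 ± 0.134 FPKM in WT. Hras and Map2k2 were not analysed here.

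Feedback inhibitors moved in both directions. Of 10 tested genes of the Sprouty, SPRED and DUSP classes, 4 fell (Spry2, Spred1, Dusp4 and Dusp1) and 1 rose (Dusp9), beside 8.39% lower and 9.62% higher over all genes tested. Within both groups the same libraries tended to be low: HM-13 was the lowest cKO library for 8 of the 10 and HC-10 the lowest WT library for 8 of the 10. Over all genes tested these shares were 41.9% for HM-13 and 30.2% for HC-10. Among all 29 tested members, these 10 included, HM-13 was lowest for 20 (69.0%) and HC-10 for 14 (48.3%). The pattern is thus not particular to the inhibitors, most of all for HM-13. HM-13 is the library rich in ribosomal RNA and HC-10 the one with few hem and choroid plexus transcripts, and their part in these levels was not tested.

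**Figure D3:**
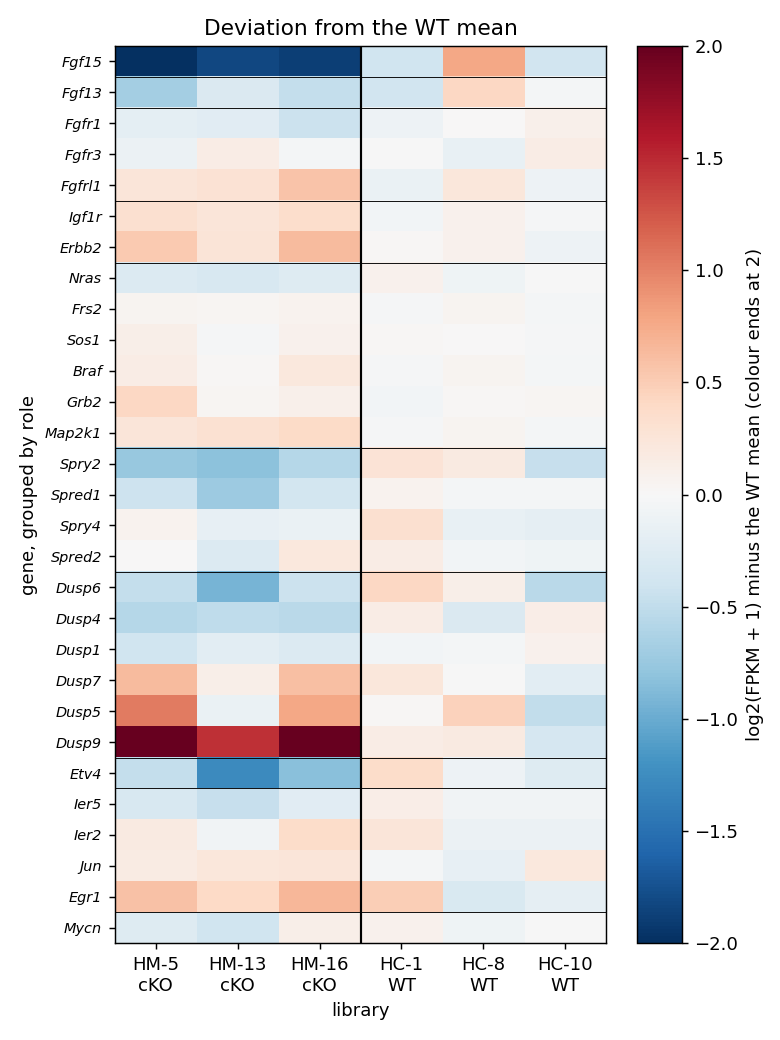
Log2(FPKM + 1) of each tested member (rows, grouped by role) in each library (columns, cKO left of WT) minus the mean of the 3 WT libraries; colours end at 2. The Fgf15 row is blue and the Dusp9 row red in all 3 cKO libraries, while Dusp6 and Spry2 are also low in the WT library HC-10.

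Spry2 (chromosome 14, 105891947 to 105896819, minus strand, 2 exons), a Sprouty inhibitor induced by FGF, had 2.67, 2.5 and 3.18 FPKM in cKO, against 6.52, 6.05 and 3.51 FPKM in WT. The groups were apart, but HC-10 lay close to the cKO libraries. The cKO mean was 51.9% of the WT mean (log2 fold change -0.72, SE 0.20, adjusted p = 0.0474), over 45 to 161 reads per library. Leaving out any library but HC-10 ended the call (highest adjusted p = 0.142). Spry4 had 1.89, 1.47 and 1.51 FPKM in cKO and 2.44, 1.5 and 1.45 FPKM in WT and did not pass (95% interval -0.45 to 0.29, adjusted p = 0.758). Spry1 was not analysed here.

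Spred1 (chromosome 2, 117121374 to 117182279, plus strand, 7 exons), which encodes an inhibitor of RAS and RAF activation, had 20.0, 15.8 and 20.7 FPKM in cKO and 28.4, 26.4 and 26.2 FPKM in WT. The lowest WT library was well above the highest cKO library. The cKO mean was 69.8% of WT, with a difference of -0.50 on the log2 scale (SE 0.11, adjusted p = 0.0190), and the call was lost without HM-5, HC-1 or HC-10 (highest adjusted p = 0.0575). Its relative Spred2 averaged 9.09 ± 1.67 FPKM in cKO and 9.14 ± 0.918 FPKM in WT, with a 95% interval of -0.34 to 0.31.

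The DUSP genes split. Dusp9 (ENSMUST00000019701; chromosome X, 73639419 to 73643514, plus strand, 4 exons) encodes the cytoplasmic ERK phosphatase MKP4. It had 19.6, 12.7 and 19.1 FPKM in cKO, against 4.54, 4.62 and 2.95 FPKM in WT. Every cKO library was more than 2-fold above every WT library. The means were 17.2 ± 3.85 FPKM in cKO and 4.04 ± 0.941 FPKM in WT (SD, n = 3 each), a 4.25-fold ratio (log2 fold change 1.84, SE 0.20, 95% interval 1.38 to 2.31, adjusted p = 0.00246), over 85 to 599 reads per library.

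Dusp4, a nuclear phosphatase of ERK and JNK and the most abundant DUSP row among the members, went the other way. It had 81.5, 85.3 and 83.6 FPKM in cKO and 135, 99.2 and 134 FPKM in WT. The cKO libraries agreed closely with each other, while HC-8 was lower than the other WT libraries. The cKO mean was 68.0% of the WT mean (log2 fold change -0.54, SE 0.12, adjusted p = 0.0207), and the call was lost without HM-5, HM-16, HC-1 or HC-10 (highest adjusted p = 0.0834). Dusp1, a nuclear phosphatase induced by stress and growth factors, had 17.8, 20.4 and 19.3 FPKM in cKO and 22.8, 23.2 and 25.3 FPKM in WT, 80.9% of WT (adjusted p = 0.0449), a call kept with 1 of the 6 libraries left out, HM-13.

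Dusp6, a cytoplasmic ERK phosphatase often used as an FGF readout, did not pass. It had 25.0, 18.0 and 25.7 FPKM in cKO, against 46.9, 38.3 and 24.0 FPKM in WT. HC-10 lay within the cKO range, so the groups overlapped (log2 fold change -0.61, 95% interval -1.17 to -0.05, adjusted p = 0.117). Without HC-10 it passed (adjusted p = 0.0266). Dusp7, another cytoplasmic ERK phosphatase, had 36.1, 25.2 and 35.4 FPKM in cKO and 27.0, 22.8 and 19.8 FPKM in WT (log2 fold change 0.45, 95% interval 0.08 to 0.82, adjusted p = 0.0918), and it passed without HM-13 (adjusted p = 0.0218). Dusp5, a nuclear ERK phosphatase, had 4.44, 1.41 and 3.53 FPKM in cKO and 1.69, 2.65 and 0.894 FPKM in WT over 11 to 58 reads, with a wide interval of -0.24 to 1.35.

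Of the 32 members, 3 have no FDR in the authors' deposited table (Etv4, Fos and Mapk3), and 11 have one under 0.05. The share of all symbols under 0.05 there is not given here, so this count has no background beside it. Of the 11, 9 are calls given here with the same sign. The other 2 are Dusp7 (log2 fold change 0.44, FDR 0.00834 in the authors' deposited table) and Igf1r (0.40, FDR 0.0128). Dusp1 has an FDR of 0.0653 in the authors' deposited table, and Etv4 has none. The size given for the Fgf15 fall differs, and the measures are not alike. The authors give a log2 fold change of -1.32. The value here, for FPKM + 1, was -1.98, and -1.60 without HC-8. Voom on the recovered reads, which does not add 1 FPKM, gave -2.32. The reason for the difference from the authors' value was not tested.

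Promoter sequence was read for the inhibitor genes that fell and have a RefSeq promoter window (Spry2, Spred1 and Dusp1) and, beside them, for Map2k1, which rose. Each run is the 250 bases before the RefSeq start (GRCm38.p6), 5′ to 3′ on the gene's strand, with capitals marking matches on either strand to the ETS core CCGGAA, the AP-1 motif TGANTCA or the GC box GGGCGG.
Spry2 promoter (chr14:105896820-105897069, minus strand): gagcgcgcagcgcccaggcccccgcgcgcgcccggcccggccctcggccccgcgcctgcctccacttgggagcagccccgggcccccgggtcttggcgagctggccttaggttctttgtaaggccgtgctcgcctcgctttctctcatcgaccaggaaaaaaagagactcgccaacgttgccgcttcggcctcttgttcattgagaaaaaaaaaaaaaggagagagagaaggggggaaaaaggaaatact
Spred1 promoter (chr2:117120821-117121070, plus strand): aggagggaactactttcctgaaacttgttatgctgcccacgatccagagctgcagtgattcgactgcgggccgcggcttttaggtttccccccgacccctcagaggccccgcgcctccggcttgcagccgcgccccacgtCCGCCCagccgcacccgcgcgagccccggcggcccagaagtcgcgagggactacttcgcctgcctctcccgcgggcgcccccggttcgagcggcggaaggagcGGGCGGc
Dusp1 promoter (chr17:26508473-26508722, minus strand): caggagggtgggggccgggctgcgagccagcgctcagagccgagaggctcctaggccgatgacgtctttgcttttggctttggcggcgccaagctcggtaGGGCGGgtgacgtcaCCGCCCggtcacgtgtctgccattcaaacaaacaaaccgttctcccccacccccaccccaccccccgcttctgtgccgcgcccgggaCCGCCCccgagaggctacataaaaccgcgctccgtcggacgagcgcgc
Map2k1 promoter (chr9:64253606-64253855, minus strand): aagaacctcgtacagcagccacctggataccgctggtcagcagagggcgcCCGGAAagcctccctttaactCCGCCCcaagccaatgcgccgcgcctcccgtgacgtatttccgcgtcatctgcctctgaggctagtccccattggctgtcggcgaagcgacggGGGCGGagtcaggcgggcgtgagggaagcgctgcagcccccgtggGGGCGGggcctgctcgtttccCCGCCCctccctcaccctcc

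The windows had no matches in Spry2, 2 GC boxes in Spred1, 3 GC boxes in Dusp1, and 4 GC boxes and 1 ETS core in Map2k1, with no overlapping matches. Among the 40 windows of the 33 members with one, 25 (62.5%) held a GC box, 6 (15.0%) an ETS core and 1 (2.5%) an AP-1 motif. Over all 32851 windows of the RefSeq table these shares were 32.7%, 12% and 6.75%. The ETS core was found in the windows of Egfr, Fgfrl1, Frs2, Hras, Map2k1 and Sos1, of which Map2k1 is the 1 called gene. GC content was 62.4% in Spry2, 70.8% in Spred1, and 68.4% in both Dusp1 and Map2k1. The matches describe these letters in these windows and say nothing of binding.

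Of the ETS factor genes Etv4 was measured. Etv4 (ENSMUST00000017868), which encodes the PEA3 transcription factor induced by FGF, had 0.739, 0 and 0.366 FPKM in cKO, against 2.11, 1.26 and 1.03 FPKM in WT. All cKO libraries were below all WT libraries at a very low level, 0 to 37 reads per library. The log2 fold change was -0.86 (SE 0.24, adjusted p = 0.0435). The gene passed the filter only through its WT values, and without any 1 WT library it was not tested. Its call was lost without HM-5, HM-13 or HM-16 (highest adjusted p = 0.111) and with voom (adjusted p = 0.0562). A second row (ENSMUST00000129160), under the filter, averaged 0.238 ± 0.237 FPKM in cKO and 0.862 ± 0.390 FPKM in WT (SD, n = 3 each). Etv1 and Etv5 were not analysed here.

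Immediate early genes, which ERK and other kinases switch on within minutes, were called in 1 case of 4 tested, beside 18% of all genes. Ier5 fell: it had 50.4, 45.6 and 54.1 FPKM in cKO and 69.7, 59.9 and 60.4 FPKM in WT, 79.0% of WT without overlap (log2 fold change -0.33, SE 0.09, adjusted p = 0.0392). Leaving out any 1 of the 6 libraries ended its call (highest adjusted p = 0.119). Egr1, a zinc finger factor under the control of ERK and serum response factor, had 4.32, 3.63 and 4.6 FPKM in cKO and 3.96, 1.84 and 2.11 FPKM in WT. HC-1 fell inside the cKO range, and the gene passed without HC-1 (adjusted p = 0.0201) but not with all libraries (log2 fold change 0.55, 95% interval 0.05 to 1.05, adjusted p = 0.115). Jun, a subunit of AP-1, had 77.6, 81.1 and 82.5 FPKM in cKO and 67.5, 61.9 and 80.3 FPKM in WT (adjusted p = 0.171), and passed without HC-10 (adjusted p = 0.0493). The opposite-strand gene is Junos.

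Ier2 averaged 51.8 ± 7.67 FPKM in cKO and 46.3 ± 7.16 FPKM in WT (SD, n = 3 each; 95% interval -0.16 to 0.48). Fos, the partner of Jun, lay under the filter with 11 to 19 reads per library, at 0.702 ± 0.310 FPKM in cKO and 0.526 ± 0.050 FPKM in WT. Mycn, the MYC family gene of neural progenitors, had 6.51, 5.81 and 8.69 FPKM in cKO and 8.46, 7.47 and 7.92 FPKM in WT, with an interval of -0.51 to 0.16. Myc was not analysed here.

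The wider pathway was counted in the same fit. Of 117 other genes of receptor tyrosine kinase and ERK signalling, listed from textbook knowledge, 62 were tested, 11 rose and 2 fell, a share of 21.0% called against 18% of all genes. Their median log2 fold change was 0.12, against -0.01 over all genes. The number that rose was 5 when HM-5 was left out and 6 when HM-16 was. With scaling to library totals 2 of them rose, Hs6st1 and Ier3.

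Around the receptor, Hs6st1, a sulfotransferase that modifies the heparan sulfate to which FGFs bind, averaged 51.7 ± 8.29 FPKM in cKO and 28.3 ± 2.57 FPKM in WT (SD, n = 3 each; log2 fold change 0.84, SE 0.12, adjusted p = 0.00611). The heparan sulfate proteoglycan genes Sdc4 (12.7 ± 0.965 FPKM in cKO, 8.08 ± 0.659 FPKM in WT) and Gpc1 (341 ± 27.0 FPKM in cKO, 254 ± 19.9 FPKM in WT) also rose, with adjusted p = 0.00838 and 0.0157. Tgfa, a ligand of the epidermal growth factor receptor, rose 2.03-fold, with 4.36, 3.42 and 3.46 FPKM in cKO and 1.62, 1.6 and 2.31 FPKM in WT (adjusted p = 0.0150). Hs6st1 and Sdc4 stayed called whichever library was left out, Tgfa lost its call without HM-5 (adjusted p = 0.0661), and Gpc1 when either HM-5 or HM-16 was left out (highest adjusted p = 0.0720).

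Downstream, the adaptor gene Shc2 rose 1.84-fold (18.9 ± 2.49 FPKM in cKO, 10.2 ± 1.40 FPKM in WT; adjusted p = 0.00774) and Rps6ka2, which encodes a ribosomal S6 kinase activated by ERK, rose 1.71-fold (adjusted p = 0.0126). Among negative regulators, the phosphatase gene Dusp3 had 15.0, 13.6 and 15.6 FPKM in cKO and 7.70, 7.64 and 7.73 FPKM in WT, a 1.92-fold ratio with tight groups (log2 fold change 0.85, SE 0.09, adjusted p = 0.00190). The RAS GTPase-activating protein gene Rasa3 rose 1.52-fold and Spry3 1.86-fold (adjusted p = 0.0122 and 0.0218), while Spred3 fell to 10.9 ± 0.804 FPKM in cKO, against 15.9 ± 0.855 FPKM in WT (adjusted p = 0.00975). Spry3 thus moved opposite to Spry2, and Spred3 in the direction of Spred1.

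Among nuclear readouts, the immediate early gene Ier3 rose 2.05-fold (7.32 ± 0.767 FPKM in cKO, 3.56 ± 0.548 FPKM in WT; adjusted p = 0.00641). Ccnd1, the G1 cyclin induced by ERK and Wnt signals, fell to 71.6 ± 10.7 FPKM in cKO, against 122 ± 14.0 FPKM in WT (adjusted p = 0.00756). Nr2f1, a nuclear receptor gene that FGF8 represses in the mouse cortex, had 231, 256 and 252 FPKM in cKO and 134, 132 and 212 FPKM in WT (log2 fold change 0.66, adjusted p = 0.0378), a call that ended when any library but HC-10 was left out (highest adjusted p = 0.112). Shc2, Dusp3, Spred3, Ier3 and Ccnd1 stayed called whichever library was left out. Rps6ka2 and Rasa3 lost theirs when either HM-5 or HM-16 was left out (adjusted p up to 0.0610 and 0.0647), and Spry3 did so for HM-5, HM-16, HC-1 and HC-8 (adjusted p up to 0.0737). Spred3 lost its call with scaling to library totals (adjusted p = 0.174).

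**Figure D4:**
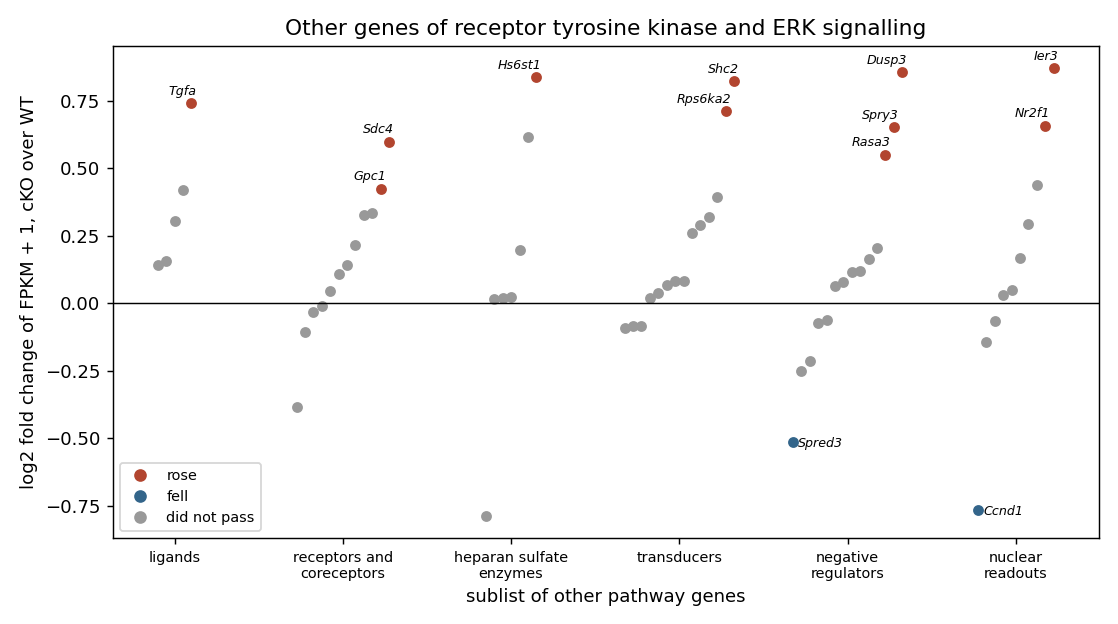
Log2 fold change of FPKM + 1 (y axis, cKO over WT) of the 62 other pathway genes tested, in 6 sublists along the x axis; each point is a gene, ordered by value within its sublist, and called genes are coloured and named. The 11 genes that rose are spread over all 6 sublists, and the 2 that fell are Spred3 and Ccnd1.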

How the data were processed

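RNA of embryonic cortex was measured by RNA sequencing in 3 cKO and 3 WT libraries. Per the submitters' processing notes, STAR 2.5.4b, featureCounts 1.6.1, DESeq2 1.22.1 and the mm10 genome were used. The sources used here give neither the annotation nor the strand setting. The deposited table holds FPKM per library, per the file headers. It also holds the authors' mean normalized count per row (a signal over all libraries), log2 fold change, p-value and FDR. Columns beginning HM were read as mutant (cKO) and HC as control (WT) from their letters.

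The test was limma (3.58.1, R 4.3.3) with a trend on mean level and group as the only term, on FPKM values after adding 1 and taking log2. Symbols needed 3 or more libraries at 1 FPKM or above. Calls use a Benjamini-Hochberg adjusted p under 0.05 over all genes tested. The fold change understates that of low genes; ratios of mean FPKM carry no pseudocount. Whole reads were recovered by scaling each FPKM by its row's mean normalized count and a step per library; 100% of values were whole within 0.001 of a read. They total 9712556 to 11922665 per library over the rows of the table, which is not all reads sequenced. The step per library did not follow these totals. It was 0.804 in HM-13, with 11473715 reads, and 0.994 in HC-10, with 10345264 reads. The totals include the Rn45s row, which held 29.7% of the reads in HM-13 and 0.506% in HC-10. The step was not compared with totals that leave this row out. The FPKM are thus not scaled to library totals, and the setting that does so is an alternative. Since the table holds FPKM and not counts, no count model was the main test, and voom on recovered reads is an alternative.

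Members, lists and tests were chosen with earlier results of these data known. Named are all 45 members, Hdac1 and Hdac2, and up to 4 called genes per sublist of other pathway genes, plus called cell type markers (1 listed marker is not reported here); Dlx2, Olig1, Olig2, Sox10, Gm26793, Gm39119, Mien1 and Junos were named after their values or positions were seen. Positions are from GENCODE M21 (GRCm38) and promoters and mRNA numbers from RefSeq (GRCm38.p6); 33 of 45 members had a promoter window.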

Additional observations from a re-analysis of the deposited data

How the results depend on the processing

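With scaling to library totals (Rn45s included) 1 member rose and 3 fell, 294 of all genes rose and 194 fell, and 2 other pathway genes rose. Without an intensity trend 3 members fell. With 1 library left out, 1 to 4 members rose and 1 to 5 fell, 284 to 961 of all genes rose and 220 to 812 fell, and 5 to 11 other pathway genes rose and 2 to 3 fell. Under the other settings (pseudocounts of 0.1 and 5, no filter or FPKM of at least 1 in all 6 libraries, quantile normalization, sums over the rows of a symbol, voom, and each row fitted on its own, the last chosen after seeing the data) these counts stayed within 1.5 times.

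The sign turned for 5 genes that did not pass. With library totals the log2 fold change was -0.0386 for Frs2 and -0.0295 for Sos1, and with quantile normalization -0.017 for Sos1. With 1 library left out it ran from -0.0795 to 0.0757 for Fgfr3, from -0.1671 to 0.0773 for Spry4 and from -0.1289 to 0.1124 for Spred2. The causes were not tested. No paired analysis was possible because the columns carry no replicate numbers of the labels. Library totals also ended the calls of 7 members (Erbb2, Map2k1, Nras, Spred1, Dusp1, Dusp4 and Ier5), with the signs kept. Few reads lie behind Etv4 (0 to 37 per library), Dusp5 (11 to 58), Fos (11 to 19) and Mapk3 (7 to 23).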
